A study of Arabidopsis thaliana with 4 samples.

Results

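The TC tiles from plate 17 onward are 1132 of the 21707 tiles with a value on an array used for chromatin immunoprecipitation (ChIP-chip) of histone H3 acetylated at lysine 56 (H3K56ac) in Arabidopsis thaliana. Each tile ID names its series (TC here), its plate and its well (row A to H and column), and the members were chosen by series and plate, with a value required in every column of the table. They filled 13 plates (17 to 25 and 27 to 30). Plates 14 to 16 and plate 26 held no tile with a value, plate 17 began at row D, and TC19B10 was the member of the series in these plates that had no value. All arrays carried DNA of Col-0 seedlings, labelled as 10 days old, grown in liquid medium without treatment. DNA precipitated with an H3K56ac antibody (IP) and input chromatin DNA of the same preparation were amplified and hybridised together, one labelled with Cy3 and the other with Cy5. There were 2 preparations, called replicates 1 and 2 here, and 4 arrays, since each preparation was hybridised with both dye orientations. The deposited values of both orientations were identical at all 21707 tiles, so n = 2 throughout and not 4. The seedlings were not divided into organs or cell types, so each value is an average over the cells of a seedling.

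H3K56ac lies where DNA enters and leaves the nucleosome. In budding yeast it is placed on newly made histone H3 before its assembly into chromatin, and in Arabidopsis it is known as one of the marks found over transcribed genes. No gene, repeat or genome position was assigned to any tile here, and no tile sequence was used. What was deposited is a log ratio of the IP and input channels. Neither the log base nor which channel was the numerator is given in the sources used here, so a low ratio below means a low deposited ratio and is not read as less or more H3K56ac. Each replicate is given minus its median over all tiles, in log units, so that 0 is the array median and not an absence of the mark.

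These tiles were low as a group and in both preparations. Their median was −0.700 log units in replicate 1 and −0.773 in replicate 2, a mean of −0.74 ± 0.0515 (SD, n = 2). Each tile was tested against the array median with limma over all 21707 tiles (two-sided, Benjamini-Hochberg adjusted p under 0.05). By that test 1015 members (89.7%) were called below the median, 19 (1.68%) above it, and 98 (8.66%) were not called. Of all tiles on the array 30.9% were called below and 33.3% above. The members' share was thus far over the background for calls below and far under it for calls above. A tile's standard error came almost entirely from the variance pooled over tiles, so the p-values reflect little of its own 2 values. A stricter limma test (treat), which asks for a distance beyond 0.585 log units (the log2 of 1.5), called 379 members below and 4 above, against 5.11% and 12.7% of all tiles. The 2 preparations are not labelled as separate cultures, so the p-values cover the spread between them, which may be technical.

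Tiles far below the median were more frequent among the members than on the array, and tiles far above it were rarer. At 1 log unit or more below the median in both replicates there were 115 members (10.2%, against 1.48% of all tiles). With 5.21% of the tiles on the array, they held 35.5% of the 667 tiles whose mean was −1 or lower. TA plates 37 to 51, a low stretch of another series, held 222 of these 667 tiles. In those TA plates 106 tiles (7.85%) were at −1 or lower in both replicates, so such tiles were not particular to the members. A mean of −1.5 or lower was reached by 2 members, which is 11.8% of the 17 such tiles on the array, and the lowest member lay at −1.55 while the lowest tile of the array lay at −2.81. At the upper end, 1 member was 1 log unit or more above the median in both replicates, against 8.56% of all tiles. Both replicates were below the median at 1052 members (92.9%) and above it at 34, and they lay on opposite sides at 46. Of all tiles on the array, 42.8% were below it in both replicates, 42.8% above it in both and 14.3% on opposite sides. In TA plates 37 to 51 these shares were 90.97%, 4.66% and 4.37%. A high share below the median in both replicates was thus not particular to the members.

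**Figure D1:**
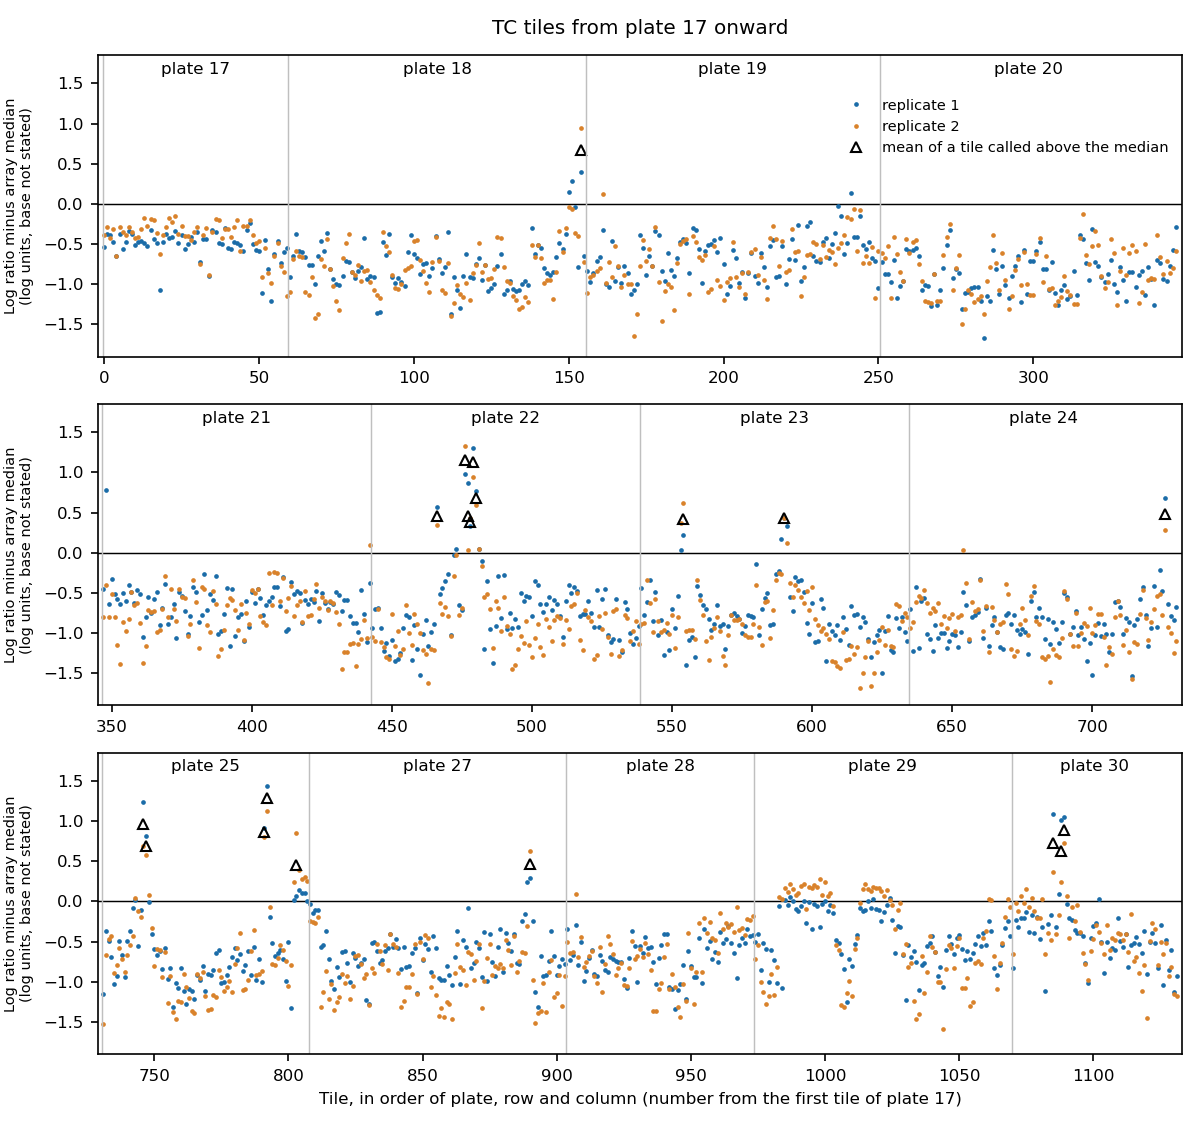
Log ratio minus the array median (log units, y axis) of the 1132 TC tiles from plate 17 onward in order of plate, row and column (x axis), with blue points for replicate 1, orange points for replicate 2, and triangles at the mean of the 19 tiles called above the median. The bulk of the points lies well below 0 (replicate means of the 5th and 75th percentiles −1.25 and −0.48), interrupted by narrow peaks in plates 18, 22 to 25, 27 and 30 and by 2 level stretches near 0 in plate 29.

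Level differed between plates. The lowest were plates 23, 20 and 24, at −0.88 ± 0.0667, −0.88 ± 0.0141 and −0.88 ± 0.0334 (mean ± SD over the medians of both replicates, n = 2), and these did not differ beyond their spread. Plate 22 stood at −0.84 ± 0.117, plate 18 at −0.82 ± 0.0339, plate 27 at −0.78 ± 0.151 and plate 25 at −0.74 ± 0.0704. Plate 19 lay at −0.70 ± 0.0461, plate 28 at −0.68 ± 0.0280 and plate 21 at −0.66 ± 0.0833. From plate 23 to plate 21 each plate differed from the next in that order by less than the larger of their SDs. The 3 highest plates were those at both ends of the range. Plate 29 had medians of −0.468 and −0.522 in replicates 1 and 2, plate 30 of −0.423 and −0.433, and plate 17 of −0.479 and −0.368. Plates 30 and 17 did not differ beyond their spread. Between 80.5% (plate 25) and 99.0% (plate 20) of the tiles of plates 17 to 28 were called below, against 58.3% in plate 29 and 71.0% in plate 30. Place on the plate moved the level less than the plate did: medians over the 12 well columns ran from −0.817 to −0.675 and over the 8 well rows from −0.806 to −0.677.

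**Figure D2:**
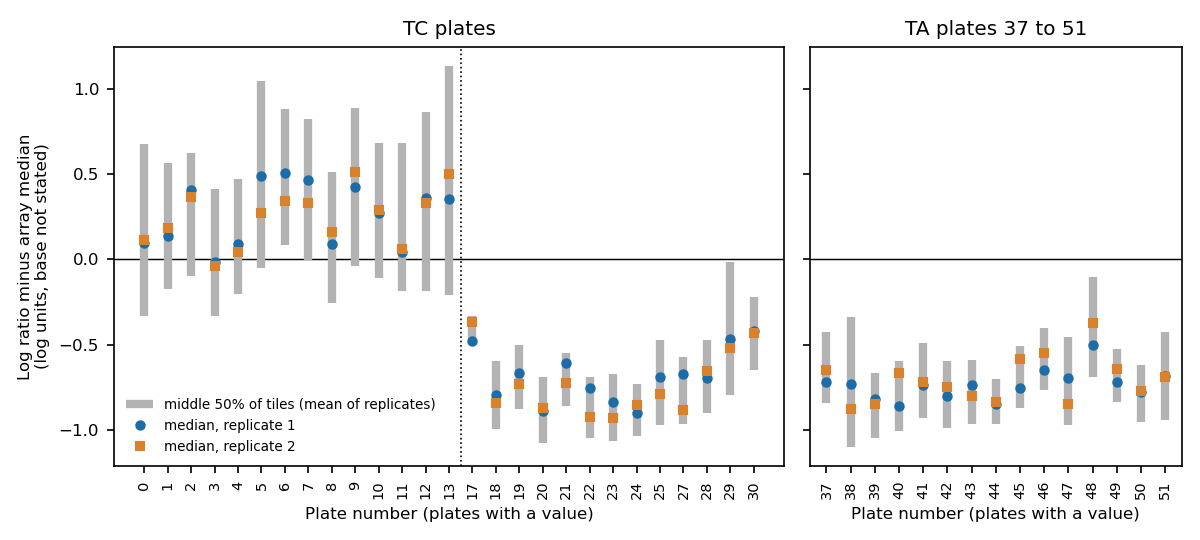
Medians of the log ratio minus the array median (log units, y axis) by plate (x axis) for all TC plates on the left and TA plates 37 to 51 on the right; circles are replicate 1, squares are replicate 2, and grey bars span the middle 50% of tiles (mean of replicates). Every TC plate right of the dotted line, which marks the gap in plate numbers, has a median between −0.37 and −0.93, and the middle bar is shortest in plate 17 and longest among these plates in plate 29.

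Most of the members lay in a few long runs of consecutive tiles called below. There were 43 such runs with a mean length of 23.6 tiles. Of these, 8 runs had 50 or more tiles and together held 625 tiles, or 55.2% of the members. The longest had 102 tiles, from TC17H01 to TC18H06, with medians of −0.794 in replicate 1 and −0.849 in replicate 2. It began at TC17H01 (−0.501 and −0.392) and ended at TC18H06 (−0.373 and −0.303), next to TC18H07 (0.154 and −0.0420), which was not called. Every tile of the run had a mean between −1.38 and −0.34. The second had 93 tiles, from TC21A03 to TC21H11, so that it covered nearly the whole of plate 21, with medians of −0.619 and −0.726. It lay between 2 tiles that were not called, TC21A02 before it and TC21H12 (−0.376 and 0.0911) after it. The third had 79 tiles, from TC19A07 to TC19H02, with medians of −0.672 and −0.733, and spans the well of TC19B10. Of the 92 rows of 12 wells with all values, 60 had every tile called below.

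The lowest members lay inside such runs, among other low tiles. TC24G08 was at −1.53 in replicate 1 and −1.57 in replicate 2 (limma adjusted p = 2.07e-21), between tiles with means of −1.05 and −1.01. TC20C10 was at −1.68 and −1.37 (limma adjusted p = 1.00e-20), between −1.18 and −1.05. TC23G11 followed at −1.30 and −1.66, TC20C03 at −1.306 and −1.5001 in replicates 1 and 2, and TC22B09 at −1.16 and −1.63. The tiles on either side of these 5 had means from −1.30 to −0.75. Both replicates were low at each of them, but replicate 2 was the lower one at 4 of the 5. Whole rows were less deep than these tiles. The 12 tiles of row C of plate 20, which hold TC20C10 and TC20C03, had medians of −1.10 and −1.13, and those of row C of plate 25 had medians of −1.08 and −1.24.

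The 19 members called above the median stood in 12 separate places, and 8 of these were a single tile. The highest was TC25F02, at 1.44 in replicate 1 and 1.13 in replicate 2 (mean 1.28, SE 0.130; limma adjusted p = 2.25e-16). It was the member at 1 or more in both replicates. The tile before it, TC25F01, was at 0.915 and 0.807 (limma adjusted p = 3.52e-09). The peak of this pair was steep: the tile before TC25F01 had a mean of −0.93, and the tiles after TC25F02 fell away to −0.13 and −0.65. TC25B04, in the same plate, was at 1.23 and 0.694, and TC25B05 next to it at 0.816 and 0.573. The fifth called tile of plate 25, TC25G01, was at 0.0662 in replicate 1 and 0.854 in replicate 2. Its call thus rests on replicate 2, since replicate 1 was near the median.

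The widest high stretch ran over 5 tiles of plate 22. It began with TC22C10, at 0.985 and 1.33 (limma adjusted p = 4.09e-14), right after a tile with a mean of −0.70. Next came TC22C11, at 0.871 and 0.0394, and TC22C12, at 0.338 and 0.432. The stretch then rose again to TC22D01, at 1.30 and 0.947 (limma adjusted p = 1.63e-13), and TC22D02, at 0.764 and 0.600. In both replicates it had 2 maxima, TC22C10 and TC22D01, with lower tiles between them. After it the mean went to 0.04, −0.13 and −0.87 over the next 3 tiles. TC22B12, 10 wells before the stretch, was a single tile at 0.569 and 0.340, with means of −1.05 before it and −0.57 after it.

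The other high members of plates 17 to 29 were single tiles. TC18H11 was at 0.394 and 0.947, TC23B04 at 0.223 and 0.620, and TC23E04 at 0.432 and 0.428. TC24H08 was at 0.676 and 0.277, and TC27G11 at 0.292 and 0.629. None of these 5 was at 1 or more in either replicate. Plates 17, 19, 20, 21, 28 and 29 had no tile called above. Plate 30 held 3, which were named after their values were seen: TC30B04 at 1.09 and 0.368, TC30B07 at 1.01 and 0.247, and TC30B08 at 1.05 and 0.727. All 3 were higher in replicate 1. Away from the edges of the 12 high runs the ratio fell within a few wells. Part of this fall is built in, since an edge is where the call above ends. The wells counted also hold tiles of other high runs, with a highest mean of 0.888 at 4 wells. Tiles next to an edge had a median of −0.236 (24 tiles), those 2 wells away −0.430 and those 3 wells away −0.714. At 4, 5 and 6 wells the medians were −0.543, −0.764 and −0.577, so beyond 3 wells there was no steady fall.

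**Figure D3:**
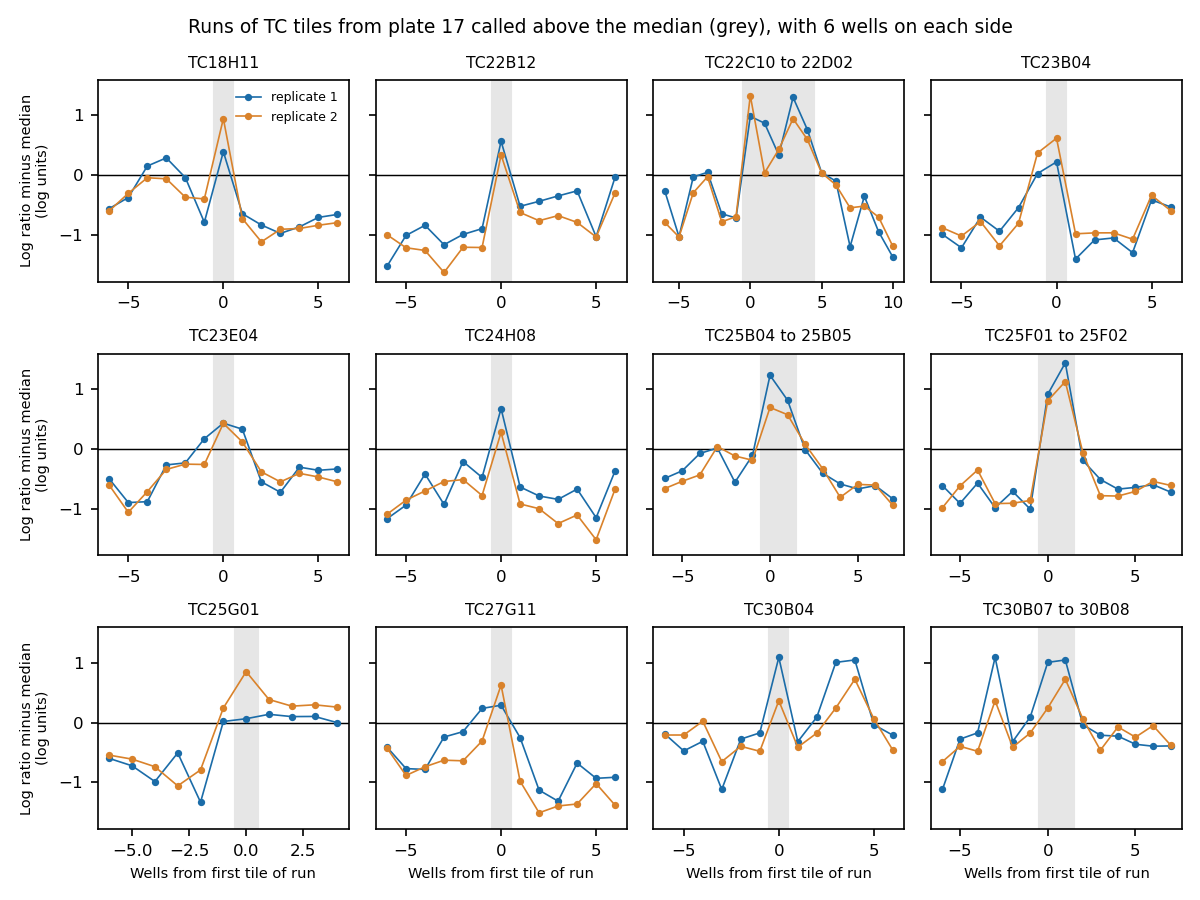
Log ratio minus the array median (log units, y axis) against wells from the first tile of each run (x axis) for the 12 runs of tiles called above the median, shaded grey, with 6 wells on each side where they have values; blue is replicate 1 and orange is replicate 2. Both replicates peak within the shaded wells in most panels, while at TC25G01 replicate 1 stays near 0.

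The range opened with a stretch in which most tiles had similar ratios. Single lower tiles interrupted it, among them TC17E07, TC17F08 and TC17F11, with means of −0.85, −0.74 and −0.89. Over the 48 tiles of rows D to G of plate 17 the median was −0.472 in replicate 1 and −0.310 in replicate 2, and the SD over tiles was 0.144 and 0.148. The mean of the replicates lay between −0.89 and −0.22, and 44 of the 48 tiles were called below, while 4 were not called. The middle 50% of plate 17 spanned 0.159 log units, against 0.306 to 0.780 in the other 12 plates. In the next row, H, where the longest low run begins, the medians were −0.590 and −0.713 and the SD over tiles was 0.246 and 0.240. The level thus went down and the spread between tiles went up within 1 plate.

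The rise in the last plates included level stretches with steep edges. In plate 29 the first 9 tiles were low, with medians of −0.606 in replicate 1 and −1.004 in replicate 2. From TC29A10 to TC29C06, 21 tiles, the medians were −0.0524 and 0.154. Of these, 20 were not called, and 1, TC29A11, was called below with −1.08 in replicate 1 and 0.0349 in replicate 2. From TC29C07 to TC29D03 the level was low again, at −0.651 and −0.991 over 9 tiles, all called below. A second stretch near 0 followed from TC29D04 to TC29E04, 13 tiles at −0.0967 and 0.142, none of them called. The medians of both stretches near 0 were thus close to each other. The tiles before and between them had similar low medians, while those after the second stretch were less low in replicate 2. Within the second stretch the SD over tiles was 0.0858 in replicate 1 and 0.0825 in replicate 2. The other 44 tiles of plate 29, from TC29E05 on, had medians of −0.597 and −0.712, and 7 of them were not called. Taken without both stretches near 0, plate 29 had 62 tiles with medians of −0.606 and −0.769.

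Plate 30 also had a level stretch near its start, lower in both replicates than the stretches near 0 in plate 29. The tile before it, TC30A01, was low (−0.830 and −0.649), but TC29H10 to TC29H12 before that tile were not called. From TC30A02 to TC30A12, 11 tiles stood at −0.225 and −0.0220, of which 10 were not called. Row B, with medians of −0.190 and −0.208, was mixed: 6 of its 12 tiles were called below and 3, the high tiles named above, were called above. From TC30C01 to the last tile, TC30F02, 38 tiles had medians of −0.519 and −0.561, with 36 called below. The range ended low, with TC30F02 at −0.933 and −1.18. Before plate 29, the last 19 tiles of plate 28, from TC28E04 to TC28F10, formed a further level stretch at −0.514 and −0.318. Plate 25 ended with 5 tiles at 0.102 and 0.299, and the first tile of plate 27, TC27A01, was at −0.0353 and −0.242.

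Against plates 17 to 29, plate 30 was higher by 0.294 log units in replicate 1 and 0.355 in replicate 2, a mean difference of 0.32 ± 0.0431 (SD, n = 2). When plate 29 was counted with the last plates, the difference was 0.32 ± 0.0305. Without the 2 stretches near 0 it was 0.22, with all of plate 30 kept. Plate 29 alone, outside these stretches, lay closer to plates 17 to 28, whose medians were −0.739 and −0.802. The direction was the same in both preparations. Plate 30 was taken as the start of the last plates because earlier results of these data had a low block to plate 29. The difference and its direction are thus partly built in by that choice. An exact sign-flip permutation test over 2 preparations (two-sided) gave p = 0.5, the smallest it allows, so no comparison of levels here can pass 0.05.

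**Figure D4:**
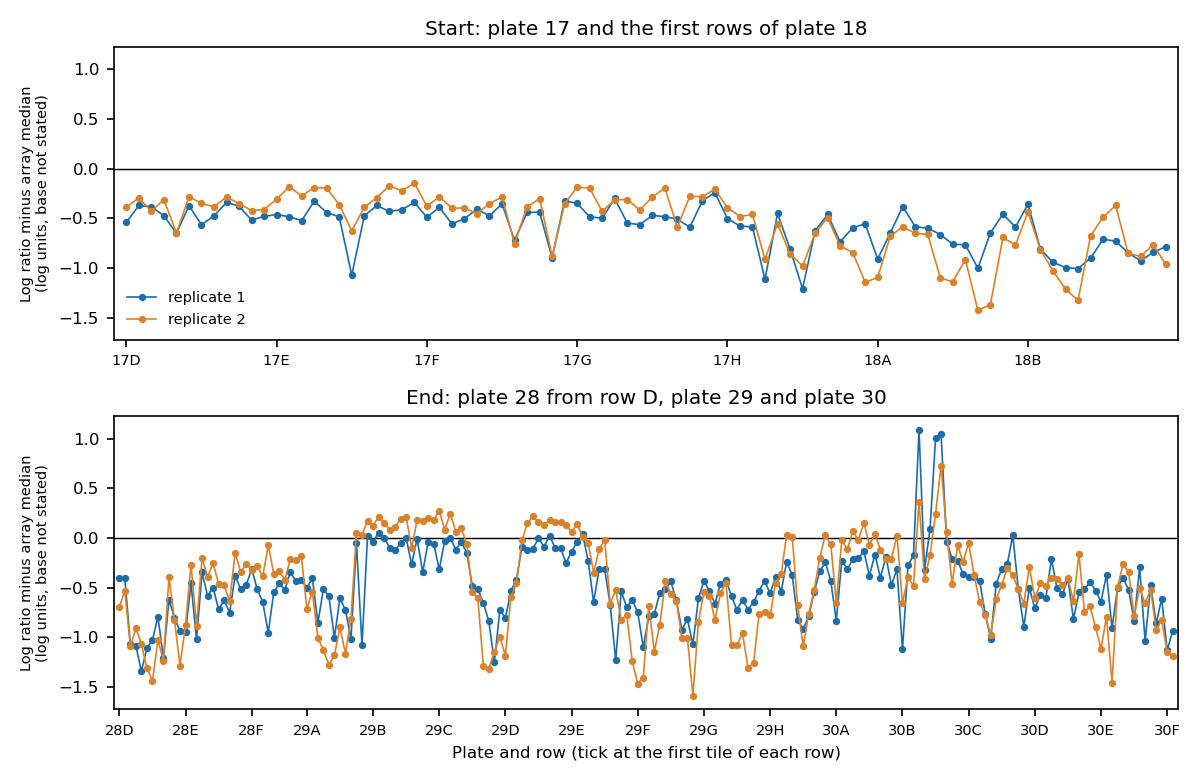
Log ratio minus the array median (log units, y axis) tile by tile (x axis, ticks at the first tile of each plate row) for the start of the range in the upper panel and its end in the lower panel; blue is replicate 1 and orange is replicate 2. The ratio is nearly level in 2 stretches of plate 29 and, apart from single lower tiles, in rows D to G of plate 17. Replicate 2 mostly runs above replicate 1 there, and both replicates are low and more variable between and after the stretches of plate 29.

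In the level stretches described above, replicate 2 was mostly the higher one. Replicate 2 was the higher one at 42 of the 48 tiles in plate 17, at 18 of the 19 in plate 28, and at 21 of 21 and 12 of 13 tiles in the stretches near 0. This did not hold for every level stretch: from TC21F09 to TC21H01, 17 tiles found by the 12-tile windows given further on, replicate 2 was higher at 8. In the runs of 50 or more tiles called below, replicate 2 had the lower median, except from TC23E06 to TC24B07. There the medians were −0.977 in replicate 1 and −0.895 in replicate 2. Among the 237 members with a mean of −1 or lower, replicate 2 was higher at 28.7%, with a median difference (replicate 2 minus replicate 1) of −0.174. Other tiles of the array at that level showed the same sign, with −0.114 over 430 tiles. Between −1 and −0.75 the signs differed, with −0.0786 over 327 members and 0.0263 over 873 other tiles, and so they did between −0.75 and −0.5, with −0.0479 over 282 members and 0.0591 over 1599 other tiles. Among the 51 members between −0.25 and 0 the median difference was 0.181, while 3696 other tiles at that level had one of 0.0082. Neighbouring tiles are not independent of each other. The steps of plate 29 were present in each preparation.

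Across the members the replicates correlated less closely than over the whole array, at Pearson r = 0.775 and Spearman rho = 0.726 among members against 0.920 and 0.903. These are descriptions across tiles, which share a preparation. The SD of the difference between replicates was 0.269 log units both among the members and over all tiles, so that the lower correlation went with a smaller range of levels (SD of the mean over tiles 0.372 against 0.657). In 5 members the replicates were more than 0.8 apart. TC21A02 was the most discordant, at 0.778 and −0.398, and was not called. TC28F04 was at −0.951 and −0.0739, and TC22G09 at −0.466 and −1.28. The others were TC29A11 and TC22C11, described above.

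Neighbouring members had similar ratios. The correlation of a tile's mean with that of the next well was 0.633 over 1128 pairs, and 0.516 when replicate 1 of a tile was set against replicate 2 of its neighbour. It was 0.480 at 2 wells, 0.282 at 5 and 0.200 at 10. With plate medians taken off, it was 0.576 between neighbours and 0.161 at 5 wells. In TC plates up to 13 the same measures, with plate levels kept, were 0.463 between neighbours, 0.219 at 2 wells and 0.0374 at 10, and in TA plates 37 to 51 they were 0.642, 0.473 and 0.143. These correlations are descriptions and were not tested.

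The step across the gap in plate numbers was large against the spread between preparations. The 1282 tiles of TC plates up to 13 had medians of 0.274 in replicate 1 and 0.228 in replicate 2. The differences (members minus earlier plates) were −0.974 and −1.001, a mean difference of −0.99 ± 0.0189 (SD, n = 2; exact sign-flip permutation p = 0.5, the smallest possible). The last plate before the gap, plate 13, stood at 0.43 ± 0.103 and the first after it, plate 17, at −0.42 ± 0.0783. No plate median overlapped: the lowest before the gap was that of plate 3, at −0.03. The 95th percentile differed by −1.42 ± 0.148, more than the median, and the 5th percentile by −0.68 ± 0.113, less than the median, both with the same sign in each replicate. The spread between tiles was smaller too. The interquartile range of the members was 0.446 in replicate 1 and 0.545 in replicate 2, against 0.979 and 0.843. In the earlier plates 47.3% of tiles were called above in 193 runs with a mean length of 3.15 tiles, of which 27.5% were a single tile. Among the members the mean length of a high run was 1.58 tiles, with 66.7% a single tile, but 12 runs give that share little precision.

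Against TA plates 37 to 51, a low stretch of 1351 tiles in another series, the members did not differ in level beyond the spread between preparations. The members were higher by 0.0386 in replicate 1 and lower in replicate 2, with a difference of −0.0881, which gives a mean of −0.02 ± 0.0896 (SD, n = 2; exact sign-flip permutation p = 1). That spread does not show that the levels were equal. The shares called below were close (89.7% and 87.4%), as were the longest runs called below (102 and 100 tiles). These TA plates were taken for comparison as the low stretch most like the members. Closeness in level, share and run length is thus partly built in by that choice. High tiles were fewer among the members. There 1.68% were called above and the highest mean was 1.28, against 3.40% and 1.88 in the TA plates, and 1 member against 11 TA tiles was at 1 or more in both replicates. The difference in the 95th percentile (members minus TA plates) was −0.0613 and −0.109, a mean of −0.09 ± 0.0341 (p = 0.5 by the same exact permutation test). At the lower end the 5th percentile differed too, by −0.0436 and −0.0705, and the interquartile range by 0.0428 and 0.0552. Low runs had a mean length of 23.6 tiles among the members and 17.9 in the TA plates. Level stretches were found in both. Of the overlapping windows of 12 consecutive tiles, 37 of 1121 (3.30%) had an SD of the mean under 0.12 among the members, 20 of 1340 (1.49%) in the TA plates and 0 of 1271 in TC plates up to 13. This window and its limit were chosen after the values were seen, and overlapping windows are not independent.

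**Figure D5:**
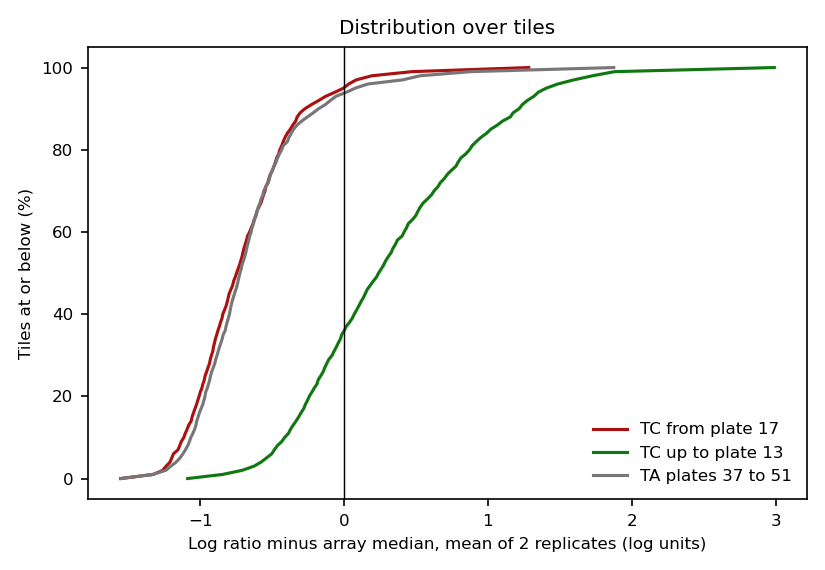
Share of tiles (%, y axis) at or below a given log ratio minus the array median (log units, mean of 2 replicates, x axis) for the TC tiles from plate 17 onward (red), TC plates up to 13 (green) and TA plates 37 to 51 (grey). The red and grey curves nearly coincide up to about −0.4, above which the red curve has fewer high tiles, and the green curve lies about 1 log unit to the right at its middle.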

How the data were processed

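The authors' deposited table holds 1 column per array and 21800 rows, of which 93 had no value. The authors deposited log ratios of a 2-colour array, named log2 here as the usual base, although no label or header gives the base, numerator, normalization or software. The columns of a dye-swap pair were identical, so they were counted once and no dye effect can be computed. Column medians as deposited were −0.737 (replicate 1) and −0.925 (replicate 2), and each was taken off. An intercept was fitted to each of the 21707 tiles in R 4.3.3 by limma 3.58.1 with eBayes, leaving 1 residual degree of freedom, and two-sided p-values were adjusted by Benjamini-Hochberg. The prior SD was 0.184 with 134 degrees of freedom, so a call was nearly a cutoff on the mean (smallest called 0.281). The fit was also run on tiles simulated from its own fitted prior, a small share of them with known shifts. That checks the computation and not whether the assumptions of the fit hold for these data. The number of arrays limits the precision. Summaries used Python 3.11.15, numpy 2.4.6 and scipy 1.17.1. Order was by plate, row and column, and runs continue across wells without a value.

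The members, comparisons and lists were chosen with earlier results of these data known. Tiles were named by a rule: members at 1 or more in both replicates, the 5 lowest, the ends of the 3 longest low runs, and the members called above in plates 17 to 29. Stretch bounds, plate 30 tiles, rows and discordant tiles were chosen after the values were seen. Alternatives covered centring, treat, robust eBayes, quantile normalization, means, run and plate definitions, and each replicate left out.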

Additional observations from a re-analysis of the deposited data

How the results depend on the processing

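The direction of the low level and of the step across the gap was the same under all alternatives run; sizes and counts depended on the zero point. With values as deposited, 1 member was above and 1121 below, and the longest low run had 321 tiles. No member (0) reached 1 in both replicates, and the members' median was −1.57. That setting tests against a deposited ratio of 0, while the column medians as deposited were −0.737 and −0.925. Centred on the mode, 50 were above and 772 below and the longest run was 36. For these zero points no share over all tiles was computed, so their counts alone do not set the members apart. The treat test called 4 above and 379 below, with a longest run of 15. Robust eBayes called 19 and 1014. Allowing 1 tile that is not called inside a run gave 229 tiles. The mean over tiles moved the difference from TC plates up to 13 to −1.02. Without the 2 stretches near 0, plates 29 and 30 together were higher by 0.216. Without 1 replicate, the count of members at 1 or more ranged from 2 to 6, the difference from TA plates 37 to 51 from −0.0881 to 0.0386 (reversed), and the neighbour correlation from 0.545 to 0.660. The remaining 27 of 43 recomputed values did not move beyond the spread between replicates or 1.5 times. With n = 2, leaving out 1 replicate cannot move a median beyond 1 SD. limma without 1 replicate has no residual degrees of freedom, and no tile lies past plate 30, so neither was run. Leaving out plate 17, plates 29 and 30 or the stretches near 0 was chosen after seeing the data.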
